A study of Mus musculus with 34 samples.

Results

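The ERK feedback and immediate-early genes described here are 10 protein-coding genes that respond to fibroblast growth factor signalling through ERK in mouse embryonic stem (ES) cells: Dusp4, Dusp6, Spry1, Spry2, Spry4, Spred1, Egr1, Ier3, Etv4 and Etv5. They were chosen by name as known members of this response, with earlier results of these data known, and all 10 were found by Ensembl identifier among the 48709 genes listed for the Control and Mta123KO libraries and among the 22018 genes listed for the single-mutant libraries. All 10 passed the filter on low counts in every comparison below.

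RNA-seq libraries, 34 in all, were made from ES cells of the 129/Ola strain to ask what the Mta1, Mta2 and Mta3 subunits of the NuRD chromatin remodelling complex contribute to gene expression. A set of 16 libraries holds 4 each of Control and Mta123KO cells labelled 2iL, that is 2i plus LIF, and labelled 48 h in N2B27 medium without the inhibitors and LIF. Here 2i stands for an inhibitor of Mek, the kinase that activates ERK, and an inhibitor of Gsk3, and LIF is a cytokine that activates Stat3. A further 18 libraries, all labelled 2i plus LIF, hold 3 each of Mta1 deleted, Mta2 KO and Mta3 deleted cells and of their comparison lines, Mta1 flox, Mta2 WT and Mta3 flox. Mta123KO cells have both Mta1 alleles and both Mta3 alleles deleted, the latter by Cre recombinase, and on Mta2 a targeted allele carrying a puromycin cassette and a deleted allele. The Control cells are not wild type. They carry floxed Mta3 alleles and altered Mta1 alleles, which the study's tables and legends describe differently (a deleted allele beside a wild-type allele, or a null allele beside a floxed allele). The Mta1 and Mta3 deleted lines were made from their own floxed parents by Cre, so those parents carry floxed alleles, whereas the Mta2 KO cells are a derived line and their Mta2 WT counterpart is another line. Replicate numbers of the 16 libraries have 2 parts, and the first part was read as the line, so each group holds 2 lines with 2 libraries each, and in the Mta123KO groups libraries of the same line resembled each other far more than libraries of different lines. Nothing in the labels says that libraries of the same line are separate cultures, so p-values measure the spread between libraries, which may in part be technical.

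ERK is activated by a chain of kinases that runs from receptor tyrosine kinases through Ras, Raf and Mek. Active ERK switches on immediate-early transcription factors such as Egr1 and the ETS factors Etv4 and Etv5, and it also induces its own brakes. Dusp4 and Dusp6 encode phosphatases that remove the activating phosphates from ERK, Dusp4 in the nucleus and Dusp6 in the cytoplasm. The Sprouty proteins (Spry1, Spry2, Spry4) and Spred1 act at the level of Ras and Raf. Ier3 encodes a small early-response protein linked to cell survival. In ES cells ERK signalling promotes exit from naive pluripotency, and Mek inhibition in 2i medium is known to lower the transcripts of these genes.

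The direction of the culture comparison has to be read with the label in mind. Names of the deposited files of the 16 libraries give the opposite culture from the sample labels, and the samples are named here by their labels throughout. Nanog, a naive pluripotency factor, measured 48.2 to 82.9 CPM, that is counts divided by the TMM-scaled library size and multiplied by 1000000, in the Control libraries labelled 2iL and 866 to 1017 CPM in those labelled 48 h. Esrrb, another naive factor, measured 42.8 to 72.8 CPM against 647 to 727 CPM. Pou3f1, a gene of the formative and primed state, measured 58.1 to 90.6 CPM in Control labelled 2iL and 1.08 to 2.0 CPM in Control labelled 48 h. Axin2, a target of the Wnt pathway that Gsk3 inhibition switches on, measured 5.99 to 9.88 CPM against 55.1 to 74.4 CPM, and Socs3, a Stat3 target, 7.70 to 11.5 CPM against 37.0 to 53.2 CPM. A gene is named called below where its adjusted p was under 0.05 and its log2 fold change beyond 1 in either direction. All 10 listed naive genes were called higher, and 7 of 8 listed formative and primed genes lower, in the Control libraries labelled 48 h. Of 8 beta-catenin targets 5 were called higher and 2 lower. The 18 single-mutant libraries, labelled 2iL, had 931 to 1613 CPM of Nanog and 0.748 to 6.53 CPM of Pou3f1, and so lay on the side of the libraries labelled 48 h. The ES cell gene Pou5f1 was present in every group, at 233 to 877 CPM. Library totals were 37855790 to 57602285 counts in the 16 libraries and 13105820 to 40613585 in the 18, and 3 counts correspond to 0.0533 to 0.220 CPM.

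The mutated genes were checked first. Mta2 measured 4.75 to 10.4 CPM in the 8 Mta123KO libraries and 110 to 203 CPM in the 8 Control libraries, and 9.21 to 11.7 CPM in Mta2 KO against 225 to 249 CPM in Mta2 WT. Mta3 fell from 61.5 to 71.1 CPM in Mta3 flox to 9.53 to 13 CPM in Mta3 deleted cells. In the libraries labelled 2iL it measured 14.1 to 23.8 CPM in Mta123KO against 56.6 to 74.7 CPM in Control. Under the 48 h label it measured 9.48 to 21.4 CPM against 36.6 to 43.1 CPM. Mta1 stayed at 39.2 to 48.0 CPM in Mta1 deleted cells against 69.4 to 103 CPM in their parents, and at 15.5 to 29.9 CPM in Mta123KO against 23.6 to 48.3 CPM in Control. Counts were made over whole genes, so exons outside the deleted part still contribute, and the Mta1 level does not test the deletion.

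Promoter sequences were taken from RefSeq on GRCm38.p6, the build of the files. They were examined for 6 of the 10 genes, as the 250 bases before the annotated start. No window was examined for Dusp4, Egr1, Etv4 or Spry4, so the motif results below say nothing about the promoters of these genes. The 4 windows shown, out of 7, are those that held a match to either short motif given next, and belong to Dusp6, which was called in all 4 comparisons of culture and of genotype below, Spred1, which was lower with it between the cultures, Etv5, which was not called between the cultures, and Ier3, which moved opposite to Dusp6 in Mta123KO. They are given 5′ to 3′ on the strand of the gene. Capitals mark matches on either strand to CGGAA, used here as a short core of the motif of ETS factors, and to TGAATG. The latter is the start of the octamer bound by Capicua, a repressor that ERK removes from its targets. GGAA after a base other than C was not searched for.
Dusp6, chr10:99262981-99263230, plus strand: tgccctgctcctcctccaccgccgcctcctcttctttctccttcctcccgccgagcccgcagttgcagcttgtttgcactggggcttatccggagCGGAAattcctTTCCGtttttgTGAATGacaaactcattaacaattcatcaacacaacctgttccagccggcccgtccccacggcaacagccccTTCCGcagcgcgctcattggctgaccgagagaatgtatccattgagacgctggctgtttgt
Spred1, chr2:117120821-117121070, plus strand: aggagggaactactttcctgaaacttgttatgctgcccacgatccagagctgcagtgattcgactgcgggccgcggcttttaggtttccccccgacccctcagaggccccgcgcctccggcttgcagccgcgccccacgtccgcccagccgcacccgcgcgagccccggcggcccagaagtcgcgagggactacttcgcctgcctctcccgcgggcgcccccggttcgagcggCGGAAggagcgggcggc
Etv5, chr16:22438369-22438618, minus strand: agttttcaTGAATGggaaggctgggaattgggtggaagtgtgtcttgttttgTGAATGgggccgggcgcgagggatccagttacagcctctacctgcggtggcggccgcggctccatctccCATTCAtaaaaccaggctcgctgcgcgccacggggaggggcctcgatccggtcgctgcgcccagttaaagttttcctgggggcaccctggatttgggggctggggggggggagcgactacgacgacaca
Ier3, chr17:35821463-35821712, plus strand: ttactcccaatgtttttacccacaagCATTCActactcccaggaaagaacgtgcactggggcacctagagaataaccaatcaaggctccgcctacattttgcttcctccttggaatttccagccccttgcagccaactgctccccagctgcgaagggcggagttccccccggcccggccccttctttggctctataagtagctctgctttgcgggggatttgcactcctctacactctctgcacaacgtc
The Dusp6 window held 3 matches to CGGAA, whose first bases lie 155, 144 and 61 bases before the start, and 1 match to TGAATG, 133 bases before it. The Spred1 window held 1 match to CGGAA, 17 bases before the start. The Etv5 window held 3 matches to TGAATG, 242, 198 and 129 bases before the start, and the Ier3 window held 1 match to it, 224 bases before the start. The other 3 windows, those of Spry1, Spry2 and a second start of Etv5, held neither. Among all 32841 windows of this length, 25.2% held CGGAA and 10.9% held TGAATG. These short cores were tried after longer motifs had given no match. Neither the full ETS motif CCGGAA (12% of all windows), the AP-1 motif TGANTCA (6.75%), the CRE TGACGTCA (1.55%), the Capicua octamers TGAATGAA and TGAATGGA (2.07% for either) nor the CArG box (1.47%) was present in any of the 7 windows of the 6 genes. The longer ETS and Capicua motifs contain the shorter cores. These matches describe the letters in the windows and no binding was measured.

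Compared per kilobase of exon, the Control libraries labelled 2iL ranked the genes from Etv5, at 71.8 ± 5.09 CPM per kb (mean ± SD, n = 4 libraries), through Dusp6 at 53.6 ± 10.8, Etv4 at 28.9 ± 3.46, Spry2 at 26.1 ± 3.03, Spred1 at 23.1 ± 2.09, Dusp4 at 14.9 ± 0.972, Spry4 at 7.67 ± 1.99, Spry1 at 3.93 ± 0.269 and Ier3 at 2.98 ± 0.597 to Egr1 at 2.72 ± 0.536 CPM per kb. The libraries of Etv4 and Spry2, of Spry2 and Spred1, and of Ier3 and Egr1 overlapped, and all other neighbours in this order were apart. In Control labelled 48 h the order was Etv5 (81.1 ± 7.42 CPM per kb), Spry2 (23.7 ± 1.22), Etv4 (12.9 ± 3.41), Spred1 (5.37 ± 0.593), Dusp6 (4.41 ± 1.14), Spry1 (2.1 ± 0.369), Ier3 (1.57 ± 0.643), Spry4 (0.798 ± 0.845), Dusp4 (0.794 ± 0.131) and Egr1 (0.289 ± 0.306). There, Spred1 overlapped Dusp6, Spry1 overlapped Ier3, Ier3 overlapped Spry4, and Spry4 overlapped Dusp4. Etv5 was thus the most abundant transcript under either label, whereas Dusp6 came next to it in the libraries labelled 2iL and after Spry2, Etv4 and Spred1 in those labelled 48 h.

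The first comparison asked how the response genes differed between the cultures in Control cells. Of the 10 genes, 6 were called lower in the libraries labelled 48 h (Dusp4, Dusp6, Spry4, Spred1, Egr1 and Etv4) and none was called higher by edgeR. Of all 21240 genes tested, 13.2% were called lower and 10.4% higher. By adjusted p alone 8 of the 10 were lower and 0 higher, against 29.0% and 29.5% of all genes. Every library labelled 48 h lay below every library labelled 2iL for 7 of the 10 genes and for 5668 of the 21240. It lay above for 0 of the 10 and for 5816 of all genes, so groups that do not overlap were common. At an unadjusted p under 0.05, 8 were lower and 1 higher in edgeR, and DESeq2 also called 6 lower and 0 higher. The median log2 fold change of the 10 genes was -1.64, beside 0.01 over all genes tested. The 6 called genes include both phosphatases, a Sprouty gene, Spred1, an immediate-early factor and an ETS factor, while Spry2 and Etv5 did not pass the p threshold in this fit.

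Dusp4 (ENSMUSG00000031530, chr8:34807297-34819894), the nuclear ERK phosphatase, measured 41.2, 37.2, 43.5 and 41.4 CPM in Control labelled 2iL, in the order of line 1 and line 2 with 2 libraries each, and 2.17, 1.68, 2.31 and 2.53 CPM in Control labelled 48 h. The groups lay far apart and each group was tight, and the log2 fold change was -4.23 ± 0.11 (SE), with an adjusted p of 7.77e-10 in edgeR's quasi-likelihood test. This 18.8-fold difference was the largest among the 10 genes in this comparison. Dusp6 (ENSMUSG00000019960, chr10:99263231-99267489), the cytoplasmic ERK phosphatase, measured 145, 135, 206 and 186 CPM against 15.3, 10.4, 18.1 and 11.5 CPM. The groups did not overlap, line 2 was the higher line under both labels, and the log2 fold change was -3.61 ± 0.20 (edgeR, adjusted p = 6.69e-08).

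The Sprouty and Spred genes, which restrain Ras and Raf, did not move as a block. Spry4 (ENSMUSG00000024427, chr18:38586247-38601415) measured 31.4, 28.3, 49.7 and 36.6 CPM in Control labelled 2iL and 3.71, 0.474, 9.47 and 1.52 CPM in Control labelled 48 h, where the first library of each line was the higher. Its log2 fold change was -3.27 ± 0.58 (edgeR, adjusted p = 0.000533). Spred1 (ENSMUSG00000027351, chr2:117121374-117182279) measured 143, 154, 154 and 177 CPM against 37.2, 33.3, 41.9 and 33.5 CPM, a log2 fold change of -2.11 ± 0.09 (edgeR, adjusted p = 1.31e-08). Spry1 (ENSMUSG00000037211, chr3:37639947-37644598) measured 12.3, 11.8, 10.9 and 10.7 CPM against 5.26, 6.58, 5.18 and 7.39 CPM. Its groups did not overlap either, but its log2 fold change of -0.91 ± 0.13 (edgeR, adjusted p = 9.09e-05) stayed within the fold threshold. Spry2 (ENSMUSG00000022114, chr14:105891947-105896819) measured 49.3, 48.8, 60.4 and 59.5 CPM against 51.7, 50.5, 49.8 and 45.8 CPM, so the groups overlapped, and its log2 fold change of -0.14 had a 95% interval of -0.31 to 0.02. Reads from the antisense genes that overlap Spry1 (Gm42922) and Spry4 (Gm27369 and Gm27804) could be told apart only if strand was used in counting, which is not given in the sources used here.

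Among the transcription factors and early-response genes, Egr1 (ENSMUSG00000038418, chr18:34859823-34864984), the immediate-early zinc-finger factor, measured 15.1, 11.5, 13 and 9.35 CPM in Control labelled 2iL and 0.0711, 2.71, 0.169 and 2.23 CPM in Control labelled 48 h. The lowest of these values rest on 4 and 7 counts, and all 4 libraries labelled 48 h lay below all 4 labelled 2iL, with a log2 fold change of -3.30 ± 0.67 (edgeR, adjusted p = 0.00148). Etv4 (ENSMUSG00000017724, chr11:101769742-101785371) measured 81.8, 79.2, 96.8 and 101 CPM against 31.6, 30.4, 48.2 and 50.2 CPM, again with line 2 higher, a log2 fold change of -1.17 ± 0.16 (edgeR, adjusted p = 0.000104). With the spike-in scaling this value was -0.99, just inside the fold threshold. Etv5 (ENSMUSG00000013089, chr16:22381309-22439719), the ETS factor closest to Etv4, measured 282, 273, 309 and 316 CPM against 316, 299, 362 and 355 CPM, and the groups overlapped, with a log2 fold change of 0.17 and a 95% interval of 0.03 to 0.32 (adjusted p = 0.0694 in edgeR). It was higher under the 48 h label in all 4 pairs of same-numbered libraries, and in a fit that pairs them, using replicate number as a blocking term, the adjusted p was 0.00323 in edgeR at the same log2 fold change of 0.17. Ier3 (ENSMUSG00000003541, chr17:35821684-35822923) measured 3.54, 2.44, 3.42 and 4.06 CPM against 1.07, 2.08, 1.30 and 2.65 CPM, a log2 fold change of -0.94 ± 0.27 (edgeR, adjusted p = 0.0121) that was not past the fold threshold.

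**Figure D1:**
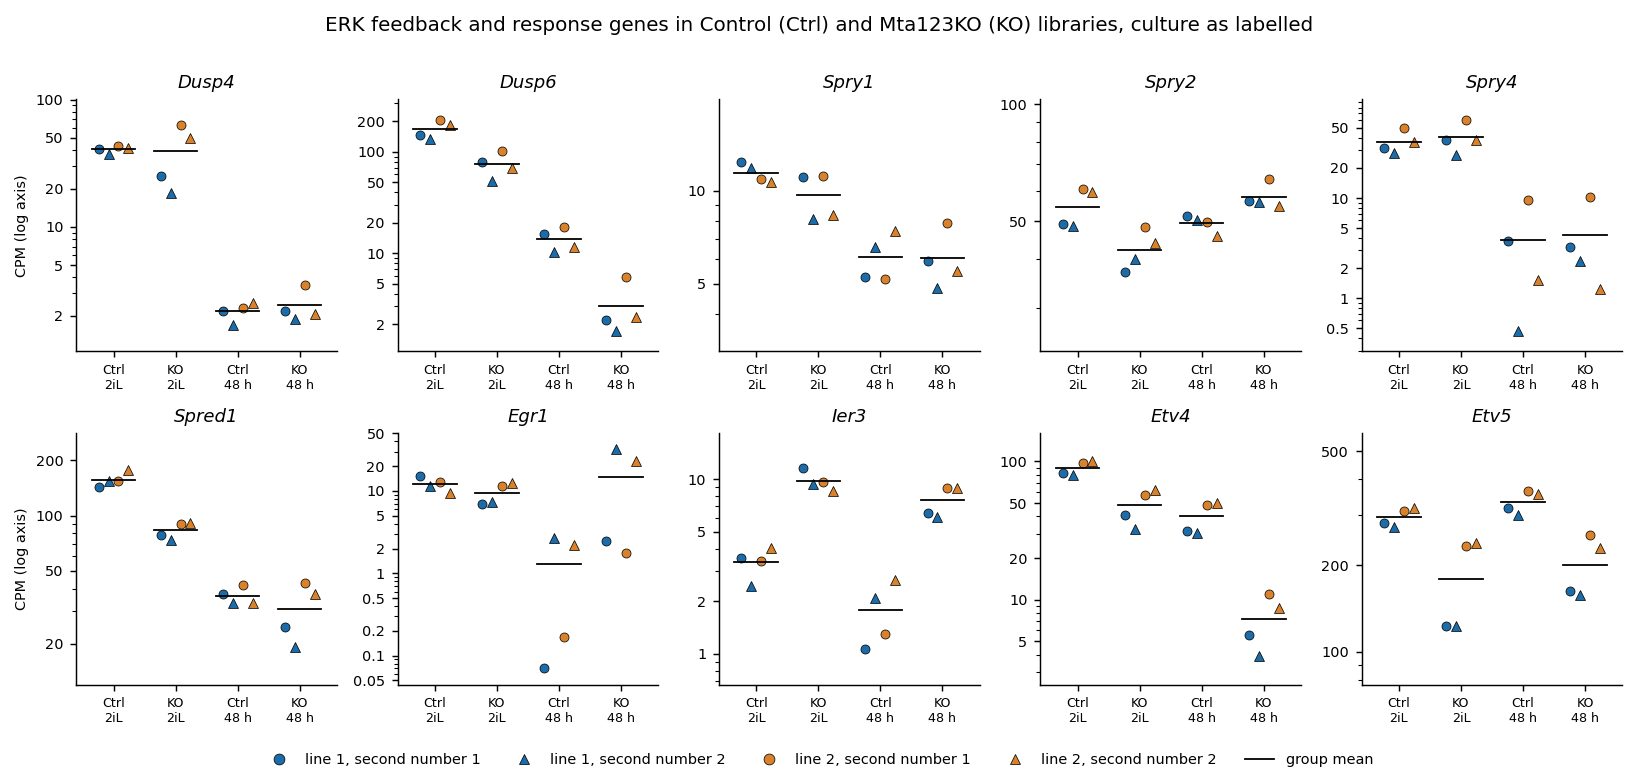
CPM of the 10 genes (log axis, a separate scale in each panel) in the 16 Control (Ctrl) and Mta123KO (KO) libraries, by the culture on the label. Colour gives the line, shape the second part of the replicate number, and the bar the group mean. Dusp4, Dusp6, Spry4 and Spred1 are lower in the groups labelled 48 h for both genotypes, Etv5 is not, and Ier3 is higher in KO than in Ctrl under both labels.

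In Mta123KO cells the same culture comparison called 5 of the 10 genes lower (Dusp4, Dusp6, Spry4, Spred1 and Etv4) and none higher, in edgeR as in DESeq2. Of the 21505 genes tested, 4.62% were called lower and 4.84% higher, and by adjusted p alone 1 of the 10 was higher and 6 lower, against 12.4% and 10% of all genes. The counts at an unadjusted p under 0.05 were the same. The median log2 fold change of the 10 genes was -1.05, beside 0.00 over all genes. Groups did not overlap for 6 of the 10 genes in the lower direction and 1 in the higher, beside 2794 and 3286 of the 21505 genes. The Mta123KO lines differed from each other, and with the 2 libraries of each line summed no member and no gene at all was called, while the log2 fold changes of these 5 genes ran from -1.43 to -4.68 with adjusted p of 0.131 to 0.205. The same 5 genes were called when replicate number was a block, and in each line taken alone.

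Dusp6 measured 79.2, 52.2, 103 and 69.3 CPM in Mta123KO labelled 2iL and 2.19, 1.73, 5.79 and 2.38 CPM in Mta123KO labelled 48 h. This was the largest difference among the 10 genes in these cells, a log2 fold change of -4.65 ± 0.42 (edgeR, adjusted p = 0.000249). Dusp4 measured 25.2, 18.6, 63.0 and 49.8 CPM against 2.19, 1.89, 3.52 and 2.07 CPM, with line 2 above line 1 in the libraries labelled 2iL, and a log2 fold change of -4.01 ± 0.43 (edgeR, adjusted p = 0.000536). Etv4 measured 40.9, 32.6, 57.5 and 62.1 CPM against 5.52, 3.88, 10.9 and 8.70 CPM, a log2 fold change of -2.73 ± 0.35 (edgeR, adjusted p = 0.00114). For all 3 genes every library labelled 48 h lay below every library labelled 2iL.

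Spry4 measured 37.6, 26.7, 60.5 and 37.6 CPM in Mta123KO labelled 2iL and 3.23, 2.35, 10.1 and 1.25 CPM in those labelled 48 h, a log2 fold change of -3.26 ± 0.62 (edgeR, adjusted p = 0.00679). Spred1 measured 78.6, 73.1, 90.2 and 91.1 CPM against 24.7, 19.2, 43.0 and 37.1 CPM, a log2 fold change of -1.42 ± 0.24 (edgeR, adjusted p = 0.00393). Neither gene's groups overlapped. Spry1, at 8.10 to 11.1 CPM against 4.85 to 7.88 CPM, passed the p threshold but not the fold threshold (log2 fold change -0.68, edgeR adjusted p = 0.0313). Spry2 was higher in the libraries labelled 48 h, at 54.8 to 64.4 CPM against 37.1 to 48.3 CPM, with no overlap and a log2 fold change of 0.45 ± 0.10 (edgeR, adjusted p = 0.0114), again within the fold threshold.

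Egr1 stood apart in Mta123KO. It measured 7.0, 7.38, 11.4 and 12.5 CPM under the 2iL label and 2.49, 31.9, 1.76 and 23.2 CPM under the 48 h label, so the second library of each line lay above, and the first below, every library labelled 2iL. The log2 fold change of 0.64 had a 95% interval of -0.98 to 2.26 (edgeR, adjusted p = 0.631). Its sign turned with the replicate number as a block, to -0.09. Etv5 measured 123 to 239 CPM against 157 to 255 CPM, with a log2 fold change of 0.17 and a 95% interval of -0.37 to 0.70. Ier3 measured 8.58 to 11.5 CPM against 6.06 to 8.90 CPM, with a log2 fold change of -0.37. Its 95% interval of -0.70 to -0.04 left out 0, although edgeR's test gave an unadjusted p of 0.0562 and an adjusted p of 0.152.

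Whether the culture effect itself differed between the genotypes was tested as an interaction over the 16 libraries. Of 22973 genes, 7.66% had a culture effect called more positive in Mta123KO and 5.37% one called more negative, and among the 10 genes Egr1 was called in the first direction and Etv4 in the second. These were 1759 and 1234 genes, which spike-in scaling changed to 1252 and 1554, with Egr1 and Etv4 still called. The interaction was 3.94 ± 1.22 for Egr1 (log2, edgeR, adjusted p = 0.0296) and -1.54 ± 0.39 for Etv4 (edgeR, adjusted p = 0.00924). Spry2 passed the p threshold alone, at 0.62 ± 0.13 (edgeR, adjusted p = 0.00316). The Dusp6 interaction of -1.02 did not pass (edgeR, adjusted p = 0.104), but it was -1.09 with adjusted p = 0.00155 once the replicate number, which pairs the libraries across the labels, entered as a block. The interaction of Egr1 lost its call without any one of Control 1_1, Mta123KO 1_1 or 1_2 labelled 2iL, or Control 2_1, Mta123KO 1_2 or 2_2 labelled 48 h, at adjusted p of 0.0530 to 0.0682 in edgeR. That of Etv4 lost it with the libraries of each line summed (adjusted p = 0.196).

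The next comparison asked what the loss of all 3 MTA proteins changed at a fixed label. In the libraries labelled 2iL, Dusp6 was called lower and Ier3 higher in Mta123KO, and the other 8 genes were not called. Among 21651 genes tested, 7.43% were called lower and 13.2% higher. By adjusted p alone 5 of the 10 genes were lower, against 24.2% of all genes, and 1 higher, against 27.1%. In the libraries labelled 48 h, Dusp6 and Etv4 were called lower and Ier3 and Egr1 higher, against 5.93% and 14.1% of the 21079 genes tested. By adjusted p alone 3 were lower and 3 higher there, against 23.4% and 26.6%. The spike-in scaling moved the split of all calls there from 2969 higher and 1249 lower to 2611 higher and 1784 lower. These comparisons share libraries with the culture comparisons above and so are not independent of them. The median log2 fold change of the 10 genes was -0.36 in the libraries labelled 2iL and 0.09 in those labelled 48 h, beside 0.01 over all genes in each. Under the 2iL label the groups did not overlap for 5 of the 10 genes as lower and 1 as higher, beside 5206 and 5558 of the 21651 genes. Under the 48 h label they did not overlap for 3 as lower and 2 as higher, beside 4903 and 5270 of the 21079 genes.

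Dusp6 was lower in Mta123KO under both labels. With the values given above, its log2 fold change was -1.15 ± 0.21 in the libraries labelled 2iL (edgeR, adjusted p = 0.00182), where no Mta123KO library reached the lowest Control library. It was -2.18 ± 0.37 in those labelled 48 h (edgeR, adjusted p = 0.00121), again with no overlap. Each Mta123KO line against all Control libraries gave -1.36 (line 1) and -0.97 (line 2) in the libraries labelled 2iL, the latter short of the fold threshold, and -2.80 and -1.75 in those labelled 48 h.

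Ier3 moved the other way. Ier3 in the libraries labelled 2iL was at 11.5, 9.33, 9.60 and 8.58 CPM in Mta123KO against 3.54, 2.44, 3.42 and 4.06 CPM in Control, a log2 fold change of 1.54 ± 0.17 (edgeR, adjusted p = 0.000108). In those labelled 48 h it measured 6.42, 6.06, 8.86 and 8.90 CPM against 1.07, 2.08, 1.30 and 2.65 CPM, a log2 fold change of 2.11 ± 0.29 (edgeR, adjusted p = 0.000366). Every Mta123KO library lay above every Control library under either label. Ier3 was called higher in each Mta123KO line taken alone, with log2 fold changes of 1.43 to 2.35.

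Etv4 and Etv5, the ETS factors, were lower in Mta123KO. Etv4 differed by -0.89 ± 0.19 on the log2 scale in the libraries labelled 2iL (edgeR, adjusted p = 0.00419) and by -2.45 ± 0.32 in those labelled 48 h (edgeR, adjusted p = 0.00027), and no libraries overlapped in either comparison. Etv5 measured 123, 123, 234 and 239 CPM in Mta123KO against 282, 273, 309 and 316 CPM in Control labelled 2iL, a log2 fold change of -0.71 ± 0.23 (edgeR, adjusted p = 0.0258). Etv5 in those labelled 48 h was at 162, 157, 255 and 231 CPM against 316, 299, 362 and 355 CPM, also -0.71 ± 0.16 (edgeR, adjusted p = 0.00512). Line 1 of Mta123KO was the lower line throughout, and taken alone it was called lower, at -1.26 and -1.04, whereas line 2 alone differed by -0.32 and -0.44.

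Among the feedback genes, Spred1 was lower in Mta123KO labelled 2iL (log2 fold change -0.91 ± 0.09, edgeR adjusted p = 7.69e-05), with every Mta123KO library at or under 91.1 CPM and every Control library at or above 143 CPM. Its difference of -0.22 in the libraries labelled 48 h had a 95% interval of -0.66 to 0.22. Spry2 was lower in the libraries labelled 2iL (-0.36 ± 0.11, edgeR adjusted p = 0.0192) and higher in those labelled 48 h (0.24 ± 0.08, edgeR adjusted p = 0.022), both within the fold threshold. Dusp4 gave no call, with intervals of -0.71 to 0.59 in the libraries labelled 2iL and -0.28 to 0.62 in those labelled 48 h, although in the former its line 1 lay below and its line 2 above all Control libraries, at -0.90 and 0.46 on the log2 scale. The intervals were -0.34 to 0.65 and -1.48 to 1.83 for Spry4, and -0.49 to 0.01 and -0.36 to 0.36 for Spry1.

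Egr1 was called higher in Mta123KO in the libraries labelled 48 h, at 2.49, 31.9, 1.76 and 23.2 CPM against 0.0711, 2.71, 0.169 and 2.23 CPM in Control. The groups overlapped, since the first library of each Mta123KO line lay near the second library of each Control line. The log2 fold change was 3.57 ± 1.18 (edgeR, adjusted p = 0.0312), and leaving out any one of Control 1_1, 2_1 or 2_2 or Mta123KO 1_2 or 2_2 raised the adjusted p to 0.0521 to 0.0762. With the second part of the replicate number as a block, added after seeing these values, it was 3.70 ± 0.26. Under the 2iL label Egr1 measured 7.0 to 12.5 CPM in Mta123KO against 9.35 to 15.1 CPM in Control, with a log2 fold change of -0.35 and a 95% interval of -0.78 to 0.07.

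Markers of other cell types and of cell state moved with genotype and with the culture label. All 10 listed trophoblast markers were called higher in Mta123KO labelled 2iL, where their summed level was 125 to 550 CPM against 21.6 to 26.0 CPM in Control, and 6 of the 9 tested were called higher in the libraries labelled 48 h, at 196 to 891 CPM against 84.5 to 104 CPM. None of the 10 was at 0 in any of these groups. Fibroblast markers, which feeder cells would carry, summed to 307 to 339 CPM in Control labelled 2iL and 758 to 1109 CPM in Control labelled 48 h, with 2 of the 5 tested called higher. Between genotypes labelled 2iL, 4 of 6 were called higher and 1 lower, at 206 to 313 CPM in Mta123KO. Primitive endoderm markers summed to 13 to 36.2 CPM in Control labelled 2iL and 69.6 to 109 CPM in Control labelled 48 h, with 1 of 8 called higher and 3 lower, and between genotypes 2 were called higher and 2 lower under either label, of 8 and of 7. Neural markers summed to 64.5 to 69.4 CPM in Mta123KO labelled 2iL, 115 to 145 CPM in Control labelled 2iL and 80.6 to 94.9 CPM in Control labelled 48 h, with 4 of 6 called lower both between genotypes labelled 2iL and between the labels in Control. Among cell state genes, 5 of 10 naive genes were called higher in Mta123KO labelled 2iL (459 to 581 CPM summed, against 176 to 264 CPM in Control), and 5 of 8 formative and primed genes lower and 1 higher (594 to 915 against 1425 to 2046 CPM). Under the 48 h label 3 of 10 naive genes were lower (1965 to 2896 against 3843 to 4251 CPM). In the interaction 8 of 10 naive genes were called more negative and 5 of 8 formative and primed genes more positive. The part of such cells or states in the differences above was not tested, and in bulk RNA fewer cells of a type and less RNA per cell cannot be told apart.

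**Figure D2:**
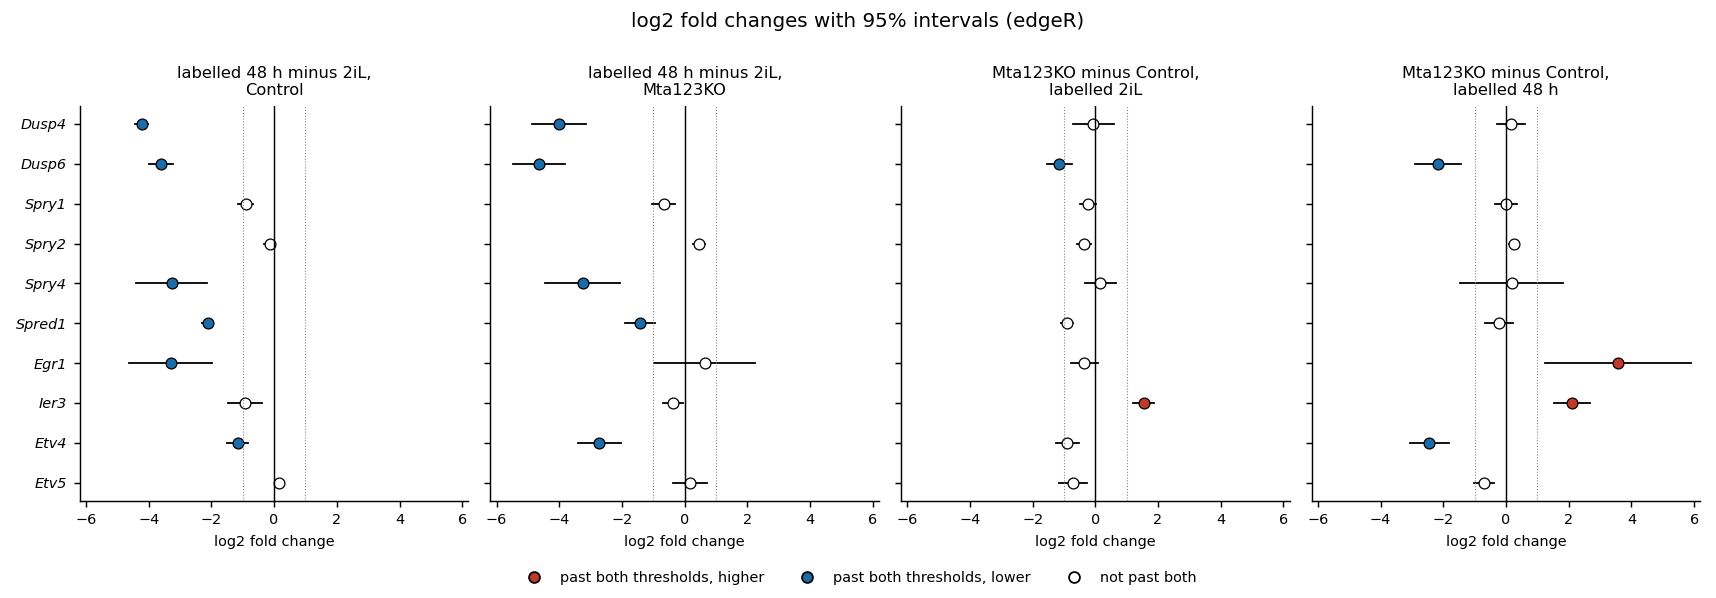
log2 fold changes of the 10 genes with 95% intervals from edgeR in the comparisons of culture label (left pair of panels) and of genotype (right pair). Filled points passed an adjusted p of 0.05 and an absolute log2 fold change of 1 (dotted lines). In both culture panels every filled point lies below 0, and Ier3 and Dusp6 lie on opposite sides of 0 in both genotype panels.

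**Figure D3:**
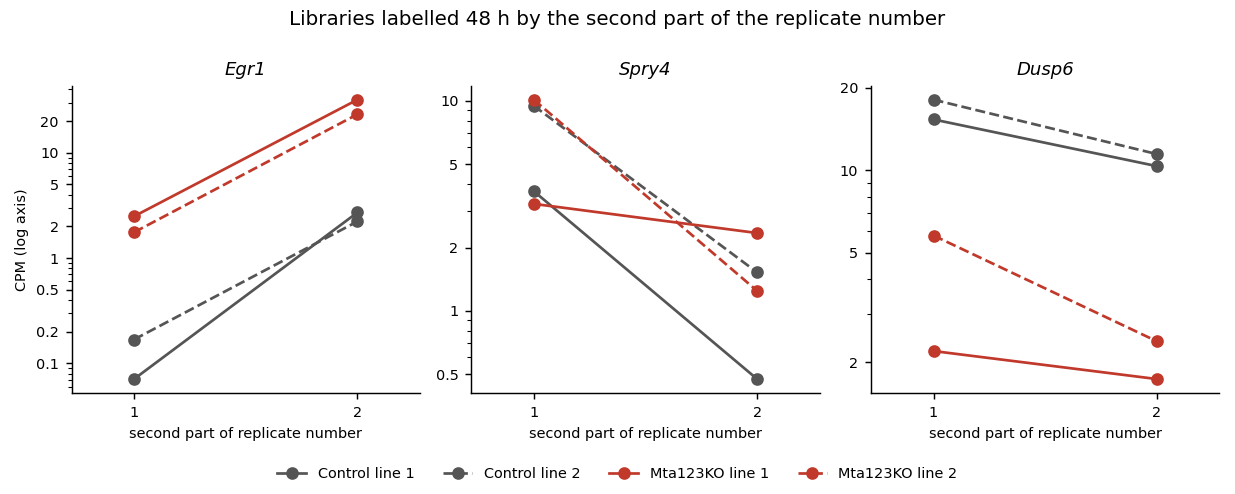
CPM (log axis) of Egr1, Spry4 and Dusp6 in the 8 libraries labelled 48 h, against the second part of the replicate number, with a line joining the 2 libraries of each cell line. Egr1 rises in all 4 pairs, while Spry4 and Dusp6 fall in all 4.

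In the libraries labelled 48 h, several of the 10 genes tracked the second part of the replicate number, whose meaning the labels do not give. Egr1 measured 0.0711 and 0.169 CPM in the first libraries of the 2 Control lines and 2.71 and 2.23 CPM in the second libraries. In Mta123KO it measured 2.49 and 1.76 CPM in the first and 31.9 and 23.2 CPM in the second. The second libraries were thus higher in all 4 lines, and the log2 difference was 3.79 ± 0.14 (edgeR with genotype and line as a term, adjusted p = 2.26e-07). Spry4 went the other way in all 4 lines, at -2.20 ± 0.33 (edgeR, adjusted p = 0.0318), and so did Dusp6, at -0.72 ± 0.12 (edgeR, adjusted p = 0.0454). In all, 3 of 21079 genes were called higher and 5 lower by this number, which includes Egr1 and Spry4 and came to 0.0142% and 0.0237% of the genes tested. The same contrast in the libraries labelled 2iL called 1 gene of 21651 higher (0.00462%) and none lower (0.0%), and 45 genes were higher and 55 lower by adjusted p alone. Spry4 was among these at -0.45 ± 0.07 (edgeR, adjusted p = 0.00803), while Egr1 differed by -0.17 with a 95% interval of -0.36 to 0.01. This contrast was chosen after the values were seen. What the number stands for was not tested.

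The single mutants were each compared with their own parent or wild-type line, all labelled 2iL. On the genes listed for both sets of libraries, Dusp4 had 0.661 to 6.73 CPM in the 9 unmutated single-set libraries, against 55.3 to 65.6 CPM in the 4 Control libraries labelled 2iL and 2.49 to 3.71 CPM in the 4 labelled 48 h. Dusp6 had 4.08 to 19.1 CPM, against 201 to 311 and 15.3 to 27.1 CPM. Spry4 had 0.159 to 8.62 CPM, against 42.1 to 74.8 and 0.701 to 14.2 CPM, and Egr1 0.162 to 2.22 CPM, against 13.8 to 22.6 and 0.106 to 4.01 CPM. For these 4 genes the single-set libraries labelled 2iL thus lay below all Control libraries labelled 2iL and within or under the range of those labelled 48 h, apart from Dusp4, which also reached above it. The other 6 genes did not all follow this. Spred1 (22.2 to 66.7 CPM against 214 to 261 and 49.1 to 62.7 CPM) and Spry1 (8.65 to 12.9 against 15.8 to 18.5 and 7.75 to 10.8 CPM) lay below the libraries labelled 2iL and reached above those labelled 48 h. Spry2 (39.8 to 123 against 72.6 to 90.9 and 67.1 to 77.1 CPM) and Etv4 (11.8 to 160 against 118 to 149 and 44.9 to 73.5 CPM) reached below and above both. Etv5 (448 to 784 against 406 to 468 and 442 to 542 CPM) reached above both, and Ier3 (0.930 to 4.08 against 3.64 to 6.0 and 1.59 to 3.88 CPM) overlapped both. The sets differ in kit or read type and file, so these levels are set side by side with no test.

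Mta1 deletion gave no call. None of the 10 genes, and none of the 14561 genes tested (0.0% in either direction), passed edgeR's thresholds, and DESeq2 called no gene either. At an unadjusted p under 0.05 there were 50 genes and no member in edgeR, and 73 genes and no member in DESeq2. These fits left out the pairing of libraries by replicate number. With replicate number as a block, edgeR gave 468 genes and no member at an unadjusted p under 0.05, and again called no gene. Every member's adjusted p was 1. The replicates were wide, with Etv4 at 78.0, 26.3 and 122 CPM in Mta1 deleted against 46.1, 19.3 and 158 CPM in Mta1 flox cells, and Dusp6 at 23.2, 4.31 and 5.65 CPM against 18.4, 12.8 and 8.94 CPM. The 95% intervals come from the fit without pairing. They were wide, from -1.53 to 1.56 for Etv4, from -1.56 to 0.96 for Dusp6 and from -2.0 to 1.20 for Spry4, and narrow only for Spred1 (-0.36 to 0.19). For Etv4 and Spry4 a log2 difference of 1 in either direction lies within the interval.

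Mta2 KO, whose WT comparison is a separate line, gave more calls among the 10 genes than the other single mutants. Spry1, Spry2, Spry4 and Etv4 were called lower and Ier3 higher in Mta2 KO, against 6.04% and 5.31% of 15602 genes tested. The median log2 fold change of the 10 genes was -0.77, beside 0.00 over all genes. Groups did not overlap for 6 of the 10 genes as lower and 3 as higher, beside 4498 and 4373 of the 15602 genes. All 3 Sprouty genes were in this set. Spry1 measured 3.11, 3.44 and 3.10 CPM in Mta2 KO against 10.8, 11.9 and 11.4 CPM in Mta2 WT, a log2 fold change of -1.81 ± 0.10 (edgeR, adjusted p = 5.98e-07). Spry2 measured 37.9, 36.3 and 37.0 CPM against 116, 119 and 106 CPM, a log2 fold change of -1.61 ± 0.05 (edgeR, adjusted p = 1.67e-08). Spry4 was scarce in both, at 0.385, 0.554 and 0.424 CPM against 1.20, 1.52 and 1.40 CPM, a log2 fold change of -1.58 ± 0.26 (edgeR, adjusted p = 0.000807). Within each of the 3 genes the groups were well separated. Over all genes, replicates 1 and 3 of Mta2 KO were far closer to each other than to replicate 2. Replicates 1 and 2 of Mta2 WT were likewise far closer to each other than to replicate 3. The p-values for Mta2 KO may therefore be too small.

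Etv4 measured 8.14, 9.32 and 9.98 CPM in Mta2 KO against 20.7, 19.6 and 19.4 CPM in Mta2 WT, a log2 fold change of -1.12 ± 0.09 (edgeR, adjusted p = 9.61e-06). Ier3 measured 3.03, 2.33 and 1.6 CPM against 1.23, 1.28 and 0.900 CPM, a log2 fold change of 1.04 ± 0.26 (edgeR, adjusted p = 0.00924). Its call was lost without Mta2 KO replicate 1 (0.79) or Mta2 WT replicate 3 (0.91), where the value fell within the fold threshold. Dusp6 (-0.79 ± 0.14, edgeR adjusted p = 0.00151) and Spred1 (-0.76 ± 0.07, edgeR adjusted p = 1.86e-05) were lower without reaching the fold threshold. Etv5 (0.03 to 0.22), Dusp4 (0.08 to 1.04) and Egr1 (-1.38 to 0.91), given by their 95% intervals, did not pass an adjusted p of 0.05 in edgeR. Neural markers moved with this comparison, with 3 of the 6 tested called higher and 2 lower, and a summed level of 280 to 299 CPM in Mta2 KO against 89.1 to 98.2 CPM in Mta2 WT. Of 8 beta-catenin targets 5 were called lower, at a summed 155 to 164 CPM against 395 to 416 CPM, and the Stat3 target Socs3 was lower, at 20.1 to 21.4 CPM against 50.0 to 52.2 CPM. Among 10 naive genes 2 were called lower, and 8 by adjusted p alone (3493 to 3709 against 4778 to 5256 CPM). Of 9 trophoblast markers tested 3 were called lower and 1 higher (152 to 160 against 113 to 122 CPM), and of 7 primitive endoderm markers 3 lower and 2 higher. The part of these in the changes of the 10 genes was not tested. With all 18 libraries in one fit, the spread was larger and only Spry1 and Spry2 stayed called lower.

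In Mta3 deleted cells, Dusp4 and Etv4 were called lower and none higher, against 5.25% and 0.812% of 15522 genes tested, and no member was higher at an unadjusted p under 0.05. DESeq2 called the same numbers of members. The calls over all genes moved with single libraries: the 126 genes higher and 815 lower became 1 and 2 without Mta3 deleted replicate 1, 251 and 1473 without replicate 2 and 41 and 205 without replicate 3, and 102 and 451, 38 and 186, and 44 and 331 without Mta3 flox replicates 1, 2 and 3. Dusp4 measured 1.77, 1.66 and 1.34 CPM in Mta3 deleted against 5.03, 4.44 and 6.65 CPM in Mta3 flox, a log2 fold change of -1.79 ± 0.26 (edgeR, adjusted p = 0.0148). Etv4 measured 6.73, 8.53 and 3.88 CPM against 14.3, 11.7 and 17.1 CPM, a log2 fold change of -1.20 ± 0.28 (edgeR, adjusted p = 0.0295). Leaving out any one library but Mta3 deleted replicate 2 ended the call of Etv4, with adjusted p from 0.0573 to 0.105, and leaving out Mta3 deleted replicate 1 ended that of Dusp4 (0.0769). The Sprouty genes did not pass, with 95% intervals of -0.56 to 0.16 for Spry1, -0.47 to 0.02 for Spry2 and -1.01 to 1.67 for Spry4. Ier3 differed by 0.47, with an interval of -0.09 to 1.02.

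**Figure D4:**
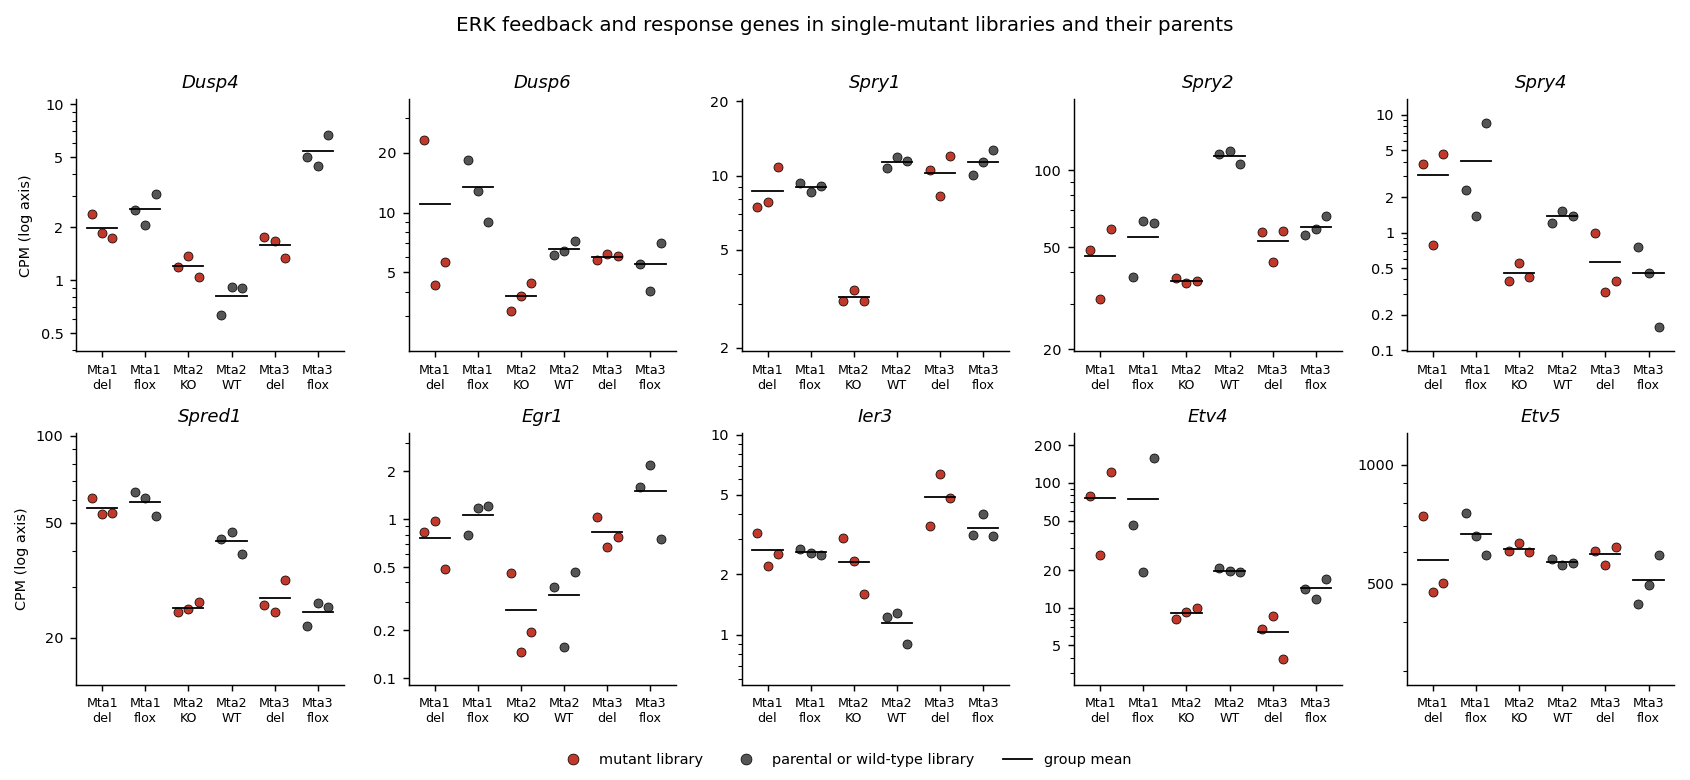
CPM (log axis, a separate scale in each panel) of the 10 genes in the 18 single-mutant libraries, with mutants in red, their parental or wild-type lines in grey and the group mean as a bar. Spry1 is lower in the 3 Mta2 KO libraries, at 3.10 to 3.44 CPM, than in any other library, Spry2 is lower there than in Mta2 WT, and Dusp4 is highest in the 3 Mta3 flox libraries.

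**Figure D5:**
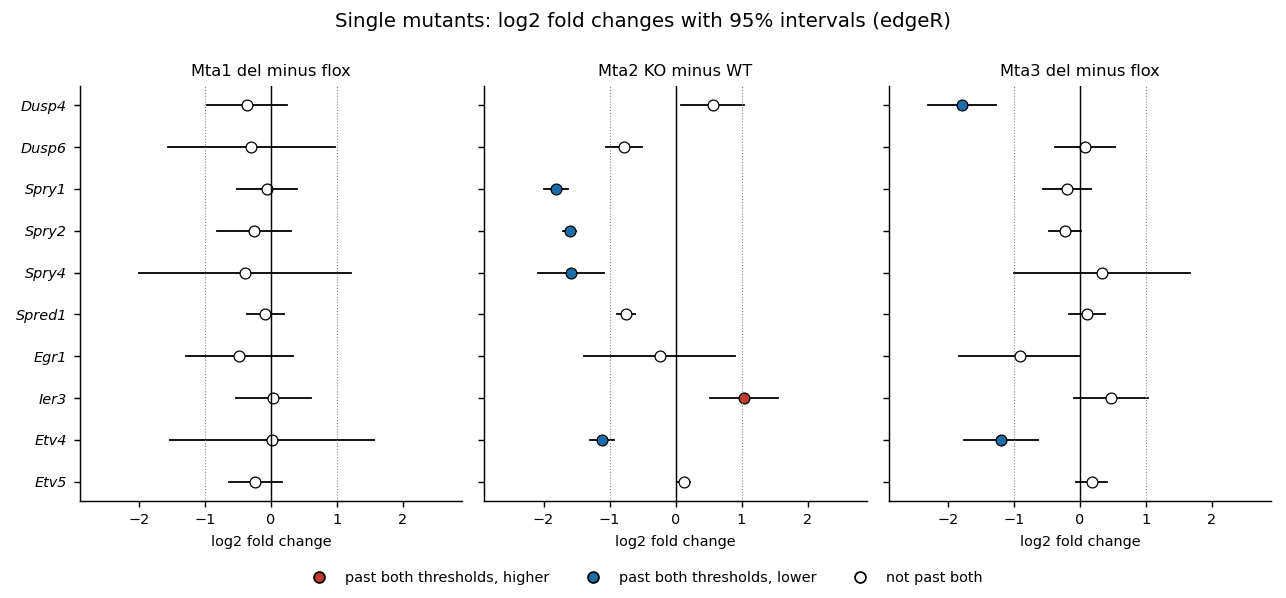
log2 fold changes of the 10 genes with 95% intervals from edgeR for each single mutant against its own parent or wild-type line. Filled points passed both thresholds (dotted lines at an absolute log2 fold change of 1). No point is filled for Mta1, 5 are for Mta2 and 2 for Mta3.

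The Mta2 and Mta3 effects were set against each other in one fit of their 12 libraries, with 16348 genes tested, of which 8.51% had an Mta2 effect called more positive and 5.03% one called more negative. Spry1 (-1.67 ± 0.22, edgeR adjusted p = 0.00019), Spry2 (-1.44 ± 0.15, edgeR adjusted p = 4.24e-05) and Spry4 (-2.0 ± 0.72, edgeR adjusted p = 0.0493) were more negative in Mta2 KO. Dusp4 was more positive there (2.30 ± 0.34, edgeR adjusted p = 0.000365). Mta2 KO and Mta2 WT are separate lines, so line and mutation cannot be told apart in this contrast. Dusp6 and Spred1 passed the p threshold only, at -0.91 and -0.92. Etv4, at 0.04 with a 95% interval of -0.56 to 0.64, was lower in both mutants, and its effects were not shown to differ. Etv4 and Dusp6 passed the p threshold as lower, and Ier3 as higher, in Mta2 KO and in Mta123KO under both labels. The Mta123KO comparisons share no libraries with that of Mta2 KO. By adjusted p alone 3789 of 15602 genes were lower and 3671 higher in Mta2 KO. How many of all genes passed in all of these comparisons was not counted. Spry1 and Spry4 were called in Mta2 KO and not in Mta123KO under either label. Whether the last effects differ between the 2 sets of libraries was not tested.

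A list of 35 other ERK response genes, of which 34 were matched and 33 tested, held 1 gene called higher and 11 called lower in Control libraries labelled 48 h, with a median log2 fold change of -0.40 against 0.01 over all genes. Of all genes, 10.4% were called higher and 13.2% lower there. Largest among those lower were Myc (0.868 to 5.57 CPM against 21.1 to 28.7 CPM, log2 fold change -3.03), the ERK phosphatase gene Dusp5 (-1.97) and Spred3, a relative of Spred1 (-1.97). Epha4, an ephrin receptor gene, was the gene called higher (3.56). In Mta123KO 2 were called higher and 4 lower between the labels, beside 4.84% and 4.62% of all genes. Epha4 was again higher (2.52), with Il17rd (1.04), a membrane inhibitor of the pathway. Fosl1 (-1.85), Spred3 (-1.14) and Epha2 (-1.07) were lower.

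In the comparison of genotypes labelled 2iL, 12 of the 33 genes were called higher in Mta123KO and 2 lower (median 0.62), beside 13.2% and 7.43% of all genes, and 19 were not called. By adjusted p alone 16 were higher and 10 lower, beside 27.1% and 24.2% of all genes. In the libraries labelled 48 h 14 were called higher and 1 lower (median 0.59), beside 14.1% and 5.93% of all genes, and 18 were not called. By adjusted p alone 18 were higher and 4 lower there, beside 26.6% and 23.4% of all genes. The AP-1 gene Fos measured 3.38 to 11.5 CPM against 0.737 to 1.42 CPM in Control labelled 2iL (log2 fold change 2.88), and 6.61 to 25.8 CPM against 1.18 to 2.13 CPM in those labelled 48 h (3.04). Plaur, the urokinase receptor gene, was higher by 2.37 and 3.23 on the log2 scale, Epha4 by 2.25 in the libraries labelled 2iL, and Fosl2 by 3.10 in those labelled 48 h. Myc (-1.97) and Il17rd (-1.15) were the 2 genes lower in the libraries labelled 2iL, and Ier5l (-2.06) was lower in those labelled 48 h. In Mta2 KO 2 of 30 tested were lower, Zfp36l1 (-2.19) and Myc (-2.1), beside 6.04% of all genes. In Mta3 deleted cells Myc (2.07) and Etv1 (1.46) were higher and Ccn1 (-1.51) and Jun (-1.16) lower among 33, beside 0.812% and 5.25% of all genes. After Mta1 deletion none of 31 was called, as for all genes there.

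The kinases and adaptors that carry the signal were described by a list of 28 ERK cascade genes, all tested. Of these, 2 were called higher (the scaffold gene Ksr1, 1.82, and the ETS factor gene Elk3, 1.55) and 2 lower (Braf, -1.25, and Mapk3, which encodes ERK1, -1.22) between the labels in Control, and none in Mta123KO, where 5 were higher and 4 lower by adjusted p alone. In Mta123KO labelled 2iL 4 were called higher, among them the adaptor gene Frs3 (1.21), Ksr1 (1.21) and the Ras inhibitor gene Nf1 (1.08), and none lower, beside 13.2% and 7.43% of all genes. By adjusted p alone 10 were higher and 8 lower, beside 27.1% and 24.2% of all genes. Under the 48 h label Frs2 (1.52) and Frs3 (1.18), adaptors of the fibroblast growth factor receptors, were higher and Elk3 (-2.24) lower, beside 14.1% and 5.93% of all genes. In Mta2 KO Elk3 (-1.42) and Braf (-1.04) were lower, beside 6.04% of all genes. No cascade gene was called in the Mta1 or Mta3 mutants. Of all genes, 0.812% were called higher and 5.25% lower in Mta3 deleted cells, and none after Mta1 deletion.

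Over the 16 Control and Mta123KO libraries, the genes whose log2 CPM was most like that of Dusp6, among 16999 genes with a mean of at least 1 CPM, were Rnf144a (Pearson r = 0.976), Lmo4 (0.974), Gli3 (0.968), Cd320 (0.965) and Tor3a (0.961). Those most like Egr1 were Rasl11b (0.906), Pheta1 (0.891), H2-M3 (0.875), Gm13036 (0.869) and Cd79a (0.868). These correlations are a description, since the 16 libraries share 4 groups, 4 lines and their culture labels.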

How the data were processed

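ES cell RNA was sequenced from libraries of either of the kits NEXTflex Rapid Directional and SMARTer Stranded (Pico). Per the labels and the study's methods, the authors trimmed reads with Trim Galore, aligned them to GRCm38 (mm10) with TopHat2 and deposited raw counts per gene from featureCounts, 1 table per library. Settings for strand and for reads with several matches are not given in the sources used here. Spike-in (ERCC) counts were left out of library sizes and tests. Symbols were matched by Ensembl identifier for 48349 of 48709 and 21852 of 22018 genes. Groups follow the sample labels.

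CPM (counts scaled to a library size of 1000000) used TMM factors over the 16 or the 18 libraries, and log2 CPM a prior count of 2. Each comparison was fitted on its own groups with edgeR's quasi-likelihood test (edgeR 4.0.16, limma 3.58.1, R 4.3.3) after filterByExpr, and p-values were adjusted by Benjamini-Hochberg over all genes tested, two-sided. Intervals are 95% normal intervals from the SE. DESeq2 1.42.0 was an alternative, with others described at the end. Tables were made with Python 3.11.15, pandas 2.3.3, numpy 2.4.6, scipy 1.17.1 and matplotlib 3.10.9. The fits were tested on simulated data.

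The 10 genes, the gene lists and the tests were chosen with earlier results of these data known. All 10 genes are named. Of the pathway lists, at most the 3 genes in each direction with the largest log2 fold change among those called and at 1 CPM or more in the higher group are named in each comparison. Of the genes most like Dusp6 and Egr1, 5 each are named.

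Libraries of a group differed by more than sampling noise (chi-square divided by its degrees of freedom was at least 4.41 over genes with a mean count of 10 or more), so none was taken as a second deposit of another. Libraries of 1 Mta123KO line were closer (6.32 to 19.4) than those of different lines (87.0 to 113). In Mta2 KO, replicates 1 and 3 were as close (4.41), with replicate 2 at 74.7 and 77.1 from them. In Mta2 WT, replicates 1 and 2 were close (8.63), with replicate 3 at 187 and 215 from them. Whether the close libraries are separate cultures is not given. Each library was counted as a sample, as labelled, so that p-values may be too small, and fits with the 2 libraries of a line summed were an alternative. Same-numbered libraries deviated together across the cultures (correlation of 0.388 to 0.454 in Control and 0.653 to 0.698 in Mta123KO) and in the Mta1 comparison (0.521 to 0.735), so the replicate numbers, which come from the sample titles, pair those libraries. They do not pair those of the other comparisons.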

Additional observations from a re-analysis of the deposited data

Results flagged for a closer look

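A check for single libraries far from the rest of their group covered 40 groups of 4 values, of which chance alone would flag about 1 in 20. Mta123KO labelled 48 h, library 2_1, had 5.79 CPM of Dusp6 where the other 3 libraries had 1.73 to 2.38 CPM. The same library had 64.4 CPM of Spry2 where the other 3 had 54.8 to 56.3 CPM.

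The effect of the culture label differed between genotypes for 3 genes, as tested by the interaction term in edgeR with adjustment over all genes. Of all 22973 genes, 2879 passed this p threshold as more positive in Mta123KO and 2427 as more negative. Egr1 differed by 3.94 on the log2 scale (adjusted p = 0.0296), since it was lower in all 4 Control libraries labelled 48 h and both above and below in Mta123KO. Etv4 differed by -1.54 (edgeR, adjusted p = 0.00924), being lower in libraries labelled 48 h in both genotypes and more so in Mta123KO. Spry2 differed by 0.62 (edgeR, adjusted p = 0.00316).

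The effect of Mta2 loss differed from that of Mta3 loss for 6 genes in edgeR by adjusted p alone. Of all 16348 genes, 2148 passed in this way with a more positive Mta2 effect and 3029 with a more negative one. The differences on the log2 scale were -1.44 for Spry2, -1.67 for Spry1, -2.0 for Spry4, -0.91 for Dusp6, -0.92 for Spred1 and 2.30 for Dusp4. Mta2 KO and Mta2 WT are separate lines, so that for them line and mutation cannot be told apart.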

How the results depend on the processing

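Of 1200 log2 fold changes of the 10 genes under the alternatives, 1090 kept their direction and side of the threshold, 68 turned sign, 30 lost and 12 gained the call. Causes were not tested beyond what each alternative changes.

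Without the fold threshold, 1 gene was higher between the labels in Mta123KO, 5 were lower in Mta123KO labelled 2iL and 2 had a more positive interaction. Over all genes these were 2662 of 21505, 5248 of 21651 and 2879 of 22973. With the libraries of each line summed, 0 genes were called lower between the labels in Mta123KO and 0 had a more negative interaction. Over all genes these were 0 of 24445 and 280 of 25816. Mta123KO line 1 alone gave 4 genes lower in the libraries labelled 2iL and line 2 alone 0. Over all genes these were 2424 of 22848 and 1877 of 22593. One fit of all 18 libraries left 2 genes lower in Mta2 KO and 1 in Mta3 deleted cells, beside 656 and 740 of all 16271 genes. Spike-in scaling moved the median of all genes by 0.18 between the labels in Control, -0.18 between genotypes labelled 48 h and -0.22 for the interaction, whose calls went from 1759 higher and 1234 lower to 1252 and 1554, and between the labels in Control from 2210 higher and 2805 lower to 2799 and 2502.

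Once replicate number was blocked, which pairs the libraries across the labels, Dusp6 joined Etv4 and 2 genes had a more negative interaction. Over all genes 1606 of 22973 did. The block changed no other call among the 10 genes, though Etv5 between the labels in Control then passed the p threshold. In the comparisons that it does not pair, Mta2 and Mta3 libraries correlated best with their own number in 1 of 3 pairs each, and genotypes in 0 of 4.

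Leaving out 1 library gave 6 to 8 genes lower between the labels in Control and 1 to 2 lower in Mta123KO labelled 2iL, 1 to 2 higher in those labelled 48 h (without Egr1 in 5 cases), 0 to 1 higher in Mta2 KO, 0 to 2 lower in Mta3 deleted cells, and 0 to 1 with a more positive and 1 to 2 with a more negative interaction. Dusp6 gained its interaction call without Mta123KO labelled 48 h, library 2_1 (-1.54), Etv4 its call without Mta123KO labelled 2iL, library 2_2 (-1.04), and between the labels in Control Ier3 gained one without libraries 1_2 labelled 2iL, 1_2 labelled 48 h or 2_2 labelled 48 h (-1.02 to -1.2), and Spry1 without the last (-1.01).

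Signs that turned all belonged to differences that were not called. Between the labels, Spry2 in Control was 0.033 with spike-in scaling and 0.064 in line 1, and Egr1 in Mta123KO was -0.095 with the replicate block, -0.26 with the second number as a block and -0.057 to 1.01 leaving out 1 library. In the libraries labelled 2iL, Dusp4 was 0.46 in line 2 and -0.38 to 0.17 leaving out 1 library, and Spry4 was -0.18 in line 1 and -0.10 to 0.34. In those labelled 48 h, Dusp4 was -0.049 with spike-in scaling, -0.073 in line 1 and -0.066 to 0.26 leaving out 1 library. Spry1 was -0.015 with no filter, -0.0049 with the block, -0.0052 in one fit, -0.011 summed by line, -0.16 with spike-in scaling, -0.16 in line 1 and -0.15 to 0.10. Spry4 was -0.23 with spike-in scaling, -0.43 in line 1 and -0.72 to 1.14, and Spred1 was 0.15 in line 2. For the interaction, Spry4 was -0.0056 with no filter, -0.075 summed, -0.41 with spike-in scaling and -0.88 to 0.97, Etv5 was -0.0044 in DESeq2, -0.012 with no filter, -0.19 with spike-in scaling and -0.13 to 0.18, and Dusp4 was -0.0013 to 0.56. Leaving out 1 library in the Mta1 comparison gave -1.42 to 0.083 for Dusp6, -0.24 to 0.054 for Spry1, -0.81 to 0.72 for Spry4, -0.52 to 1.18 for Etv4 and -0.12 to 0.15 for Ier3. It gave -0.93 to 0.10 for Egr1 in Mta2 KO, and in Mta3 deleted cells -0.10 to 0.29 for Dusp6, -0.35 to 0.82 for Spry4 and -0.017 to 0.19 for Spred1.

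Depth limited Egr1 in the single mutants, which rests on 5 to 62 counts per library. Intervals and floors cover counting or library spread only.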
